A study of Mus musculus with 2 samples.

Results

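The Serpina3 cluster genes Serpina3c, Serpina3f, Serpina3g, Serpina3h, Serpina3i, Serpina3m and Serpina3n were examined in whole omentum of WT and Postn-DTR mice by RNA-seq. These 7 genes were found by symbol among the 24346 gene symbols listed in each library. They were selected on a measured value, because Serpina3m has one of the largest increases in this same contrast, so the differences given here are descriptions and support no test. The omentum is a sheet of visceral fat that carries milky spots, which are clusters of lymphocytes, macrophages and stromal cells. Postn-DTR mice carry a mutated diphtheria toxin receptor in the first coding exon of 1 copy of Postn, so that cells using this promoter are sensitive to diphtheria toxin (DT). The line was made to deplete the Aldh1a2+ fibroblastic reticular cells (FRCs) of the omentum, but Postn is also used by cells of other organs, such as osteoblasts and myofibroblasts. Both genotypes received DT, and the tissue was taken 5 days later. There was 1 library per genotype, made from total RNA, and neither the age and sex of the mice nor whether mice were pooled was given in the sources used here. The FPKM of Postn itself, a measure of transcript level explained below, was 58.3 in the WT library against 16.2 in the Postn-DTR library. Because the insertion lies in Postn, fewer such cells and less Postn transcript from the altered copy cannot be told apart. No value has a replicate check, and intervals cover counting error only.

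Serpins are protease inhibitors that work by a trap. A flexible stretch near the C-terminus, the reactive centre loop, is offered to the protease as bait, and cleavage of the loop locks the enzyme to the inhibitor in an inactive complex. Humans have a single SERPINA3 gene, which encodes alpha-1-antichymotrypsin, a plasma protein of the acute-phase response that inhibits cathepsin G and mast cell chymase, whereas the mouse carries a cluster of duplicated copies. The copies keep the serpin scaffold and differ in the loop, which sets the proteases that each can trap.

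In GENCODE release M21, on GRCm38, the 11 Serpina3 genes that the files list lie on chromosome 12 between 104112724 and 104414329, a stretch of 302 kb. Serpina3c (ENSMUSG00000066361) is on the minus strand and the 6 other members are on the plus strand. Serpina3h (ENSMUSG00000041449) is annotated as a transcribed unprocessed pseudogene, and the other members are protein coding. The bases that encode the loop are shown because the members are less alike there than over the whole reading frame. In the pseudogene Serpina3h they are the matching bases. The capitals mark the variable part, which lies between the conserved hinge codons and the conserved codons that follow the loop, both in lower case. Each sequence runs 5′ to 3′ along the transcript and comes from the GENCODE transcript sequences.

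Serpina3n, chr12:104413448-104413534, plus strand: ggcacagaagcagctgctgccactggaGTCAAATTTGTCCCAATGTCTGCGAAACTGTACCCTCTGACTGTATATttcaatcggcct
Serpina3m, chr12:104393769-104393855, plus strand: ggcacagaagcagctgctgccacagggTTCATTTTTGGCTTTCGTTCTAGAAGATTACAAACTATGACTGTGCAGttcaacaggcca
Serpina3c, chr12:104147310-104147387, minus strand: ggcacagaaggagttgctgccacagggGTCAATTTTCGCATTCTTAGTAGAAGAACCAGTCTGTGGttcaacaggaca
Serpina3g, chr12:104241072-104241158, plus strand: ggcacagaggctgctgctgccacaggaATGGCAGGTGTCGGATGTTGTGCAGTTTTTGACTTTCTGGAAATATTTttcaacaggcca
Serpina3f, chr12:104220245-104220334, plus strand: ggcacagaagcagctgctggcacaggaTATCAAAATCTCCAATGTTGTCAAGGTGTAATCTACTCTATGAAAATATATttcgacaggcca
Serpina3i, chr12:104268480-104268566, plus strand: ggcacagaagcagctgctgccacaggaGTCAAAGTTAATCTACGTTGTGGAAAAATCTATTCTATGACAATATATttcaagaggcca
Serpina3h, chr12:104253511-104253597, plus strand: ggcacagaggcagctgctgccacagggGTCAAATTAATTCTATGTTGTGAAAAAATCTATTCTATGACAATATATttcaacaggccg

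Each of these stretches lies within the last exon of its transcript, which is exon 5 in Serpina3n, Serpina3m, Serpina3c, Serpina3g and Serpina3f, exon 6 in Serpina3i and exon 4 in Serpina3h. The variable part has 16 codons in 5 members, 17 in Serpina3f and 13 in Serpina3c. Over the 21 pairs of members, the open reading frames were 82.0% to 93.1% identical in bases, with a median of 85.5%. The variable parts of the loop were 33.3% to 89.6% identical, with a median of 50%. Gaps in the alignment counted as differences in the loop but were left out for the frame, so differences in length lower only the loop values. Serpina3h and Serpina3i were the closest pair in both measures, and Serpina3g and Serpina3m were the most distant pair in both. Among the members, Serpina3m was closest to Serpina3c, at 89.8% over the frame and 62.5% in the loop.

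**Figure D1:**
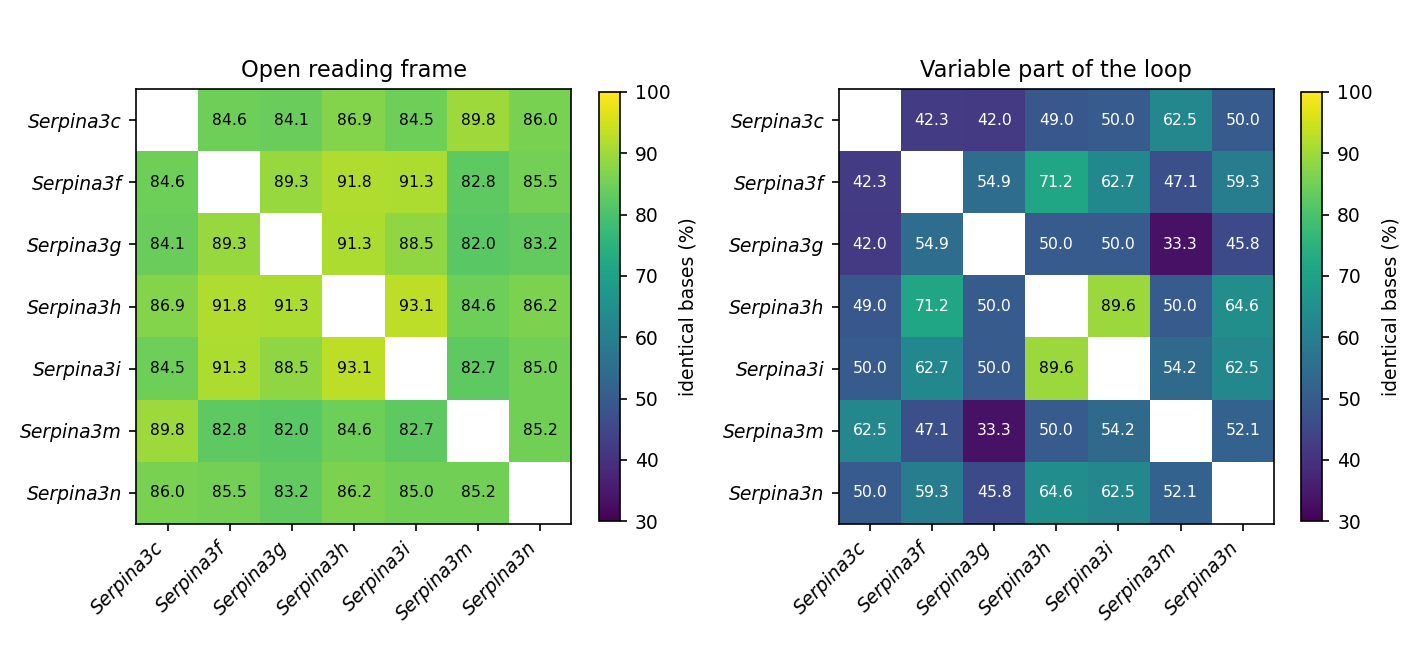
Identical bases between each pair of members, in percent, over the aligned open reading frame (left, gaps left out) and over the variable part of the reactive centre loop (right, gaps counted as differences). The frames lie between 82.0% and 93.1% and the loops between 33.3% and 89.6%, with Serpina3h and Serpina3i closest in both.

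Genes this similar can exchange reads, and how the authors assigned reads that fit several copies is not given in the sources used here. The exposure of each member was therefore measured on the transcript sequences. Of all windows of 75 bases in the transcript, the share found in no transcript of another gene was 99.7% for Serpina3c, 98.5% for Serpina3n, 93.8% for Serpina3f, 93.1% for Serpina3i, 91.1% for Serpina3g, 90.3% for Serpina3m and 87.1% for Serpina3h. With windows of 50 bases these shares ran from 95.7% for Serpina3c down to 76.1% for Serpina3h. Serpina3c and Serpina3n are thus the members whose values depend least on the assignment. Serpina3m shares most with Serpina3k, a Serpina3 gene that is not among the members, at 9.21% of its windows of 75 bases. In this annotation 1 of the 2 Serpina3m transcripts also begins with an exon of 60 bases inside Serpina3k (chr12:104338486-104338545). Values of Serpina3m, Serpina3k, Serpina3g, Serpina3h, Serpina3f and Serpina3i are uncertain to the extent that reads in such windows were split.

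Expression was read as FPKM, which scales fragments by transcript length and by library size, so that levels can be compared between genes. A change is log2(FPKM + 1) in Postn-DTR less that in WT, a scale on which differences of scarce genes come out smaller than their fold. A fold is the ratio of the deposited FPKM. All 7 members were higher in Postn-DTR than in WT. Their summed FPKM was 208 in WT against 1622 in Postn-DTR, a ratio of 7.78. This sum depends less than the single values do on how reads were divided among the 7 copies, although reads shared with Serpina3k still bear on it. Genes whose FPKM averaged 1 or more over the 2 libraries were compared, which left 13127. All 7 members were compared, but Serpina3h and Serpina3i passed through their Postn-DTR value alone. At least 2-fold higher on the log2(FPKM + 1) scale were 6 members, against 3.88% of all genes compared, and 0 were at least 2-fold lower, against 3.12%. The median change was 1.60 for the members and 0.02 for all genes compared. Since the members were picked from this contrast, nothing is read from these counts.

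**Figure D2:**
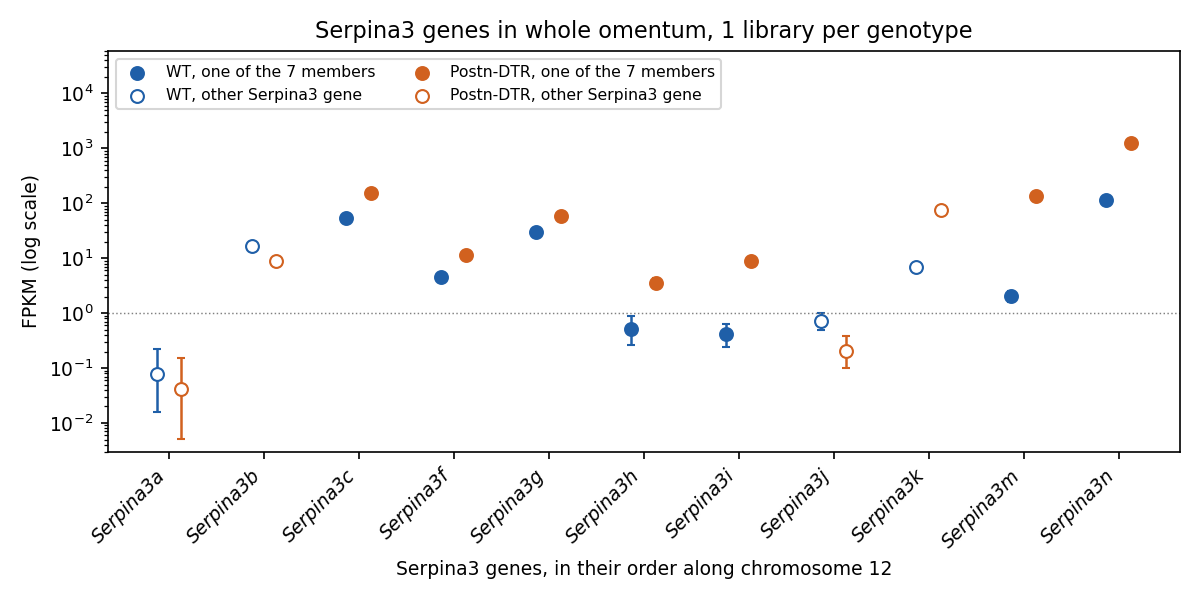
FPKM on a log axis of the 11 Serpina3 genes in WT (blue) and Postn-DTR (orange), ordered along chromosome 12, with filled points for the 7 members, open points for the other 4 and bars for the 95% counting interval. Each member is higher in Postn-DTR, from 1.96-fold in Serpina3g to 68.0-fold in Serpina3m, whereas Serpina3b and Serpina3j are lower.

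Serpina3n (ENSMUSG00000021091, chr12:104406729-104414329) encodes a secreted inhibitor, known to inhibit granzyme B, and is the member most often taken as the mouse counterpart of human SERPINA3. It had an FPKM of 116 in WT against 1248 in Postn-DTR, 10.8-fold higher with a change of 3.42. It was the most abundant member in both libraries. In WT it held 49.8% of the summed FPKM of the 11 Serpina3 genes, and in Postn-DTR 73.2%. Its values rest on about 5028 and 55905 estimated fragments, which gives a fold between 10.5 and 11.1 by counting error. In the order of all changes it ranked 29 of 13127.

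Serpina3m (ENSMUSG00000079012, chr12:104338486-104394257), the gene for which the cluster was picked, had an FPKM of 2.03 in WT against 138 in Postn-DTR. The ratio was 68.0, the change was 5.52, and its rank was 6 of 13127. The WT value rests on about 68.8 estimated fragments (95% interval 53.7 to 87.3) and the Postn-DTR value on about 4843, so the fold lies between 53.6 and 87.5 by counting error. Among the members it had the fifth highest level in WT and the third in Postn-DTR, and its share of the Serpina3 sum was 0.872% and 8.10%. This interval covers counting error only, in a gene picked for this difference, and the spread between mice is unknown. It does not cover how reads shared with Serpina3k were assigned.

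Serpina3c (chr12:104146382-104153870), whose older symbol Klkbp stands for kallikrein-binding protein, was the second most abundant member in both libraries. Its FPKM was 55.02 in WT against 153 in Postn-DTR, 2.78-fold higher with a change of 1.46. The counting interval of the fold was 2.66 to 2.91. Because Serpina3n differed by more, the share of Serpina3c in the Serpina3 sum was smaller in Postn-DTR, at 8.97% against 23.6%. In Postn-DTR its level was close to that of Serpina3m, with counting intervals of 149.5 to 156.5 and 134.3 to 142.1 that did not overlap. These intervals do not cover the reads that Serpina3m shares with Serpina3k or the transcript lengths used. The order of this pair is therefore not settled.

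Serpina3g (ENSMUSG00000041481, chr12:104236245-104241939), also called Spi2A, acts inside cells, where it inhibits lysosomal cysteine cathepsins, and it is known from activated T cells and macrophages. It had an FPKM of 29.8 in WT against 58.4 in Postn-DTR, which was 1.96-fold higher with a change of 0.95. This was the smallest difference among the members and the one that stayed under 2-fold, and 4.30% of all genes compared had a larger change. Serpina3f (ENSMUSG00000066363, chr12:104214544-104221129), its neighbour on the chromosome, had an FPKM of 4.54 in WT against 11.6 in Postn-DTR, a 2.56-fold difference with a change of 1.19. The frames of this pair were 89.3% identical and their loops 54.9%.

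Serpina3h and Serpina3i were the least abundant members. The pseudogene Serpina3h (chr12:104247905-104253669) was at 0.511 in WT against 3.59 in Postn-DTR, 7.03-fold higher with a change of 1.60. Serpina3i (ENSMUSG00000079014, chr12:104263122-104269372) was at 0.409 in WT against 8.77 in Postn-DTR, 21.4-fold higher with a change of 2.79. Their WT values rest on about 12.1 and 19.0 estimated fragments, and the counting intervals of their folds were wide, from 3.83 to 14.1 for Serpina3h and from 13.5 to 35.9 for Serpina3i. The order of the pair in WT could not be told at this depth, since the intervals of their FPKM, 0.264 to 0.892 and 0.247 to 0.639, overlapped. In Postn-DTR Serpina3i was above Serpina3h, with intervals of 7.96 to 9.65 and 2.88 to 4.42.

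**Figure D3:**
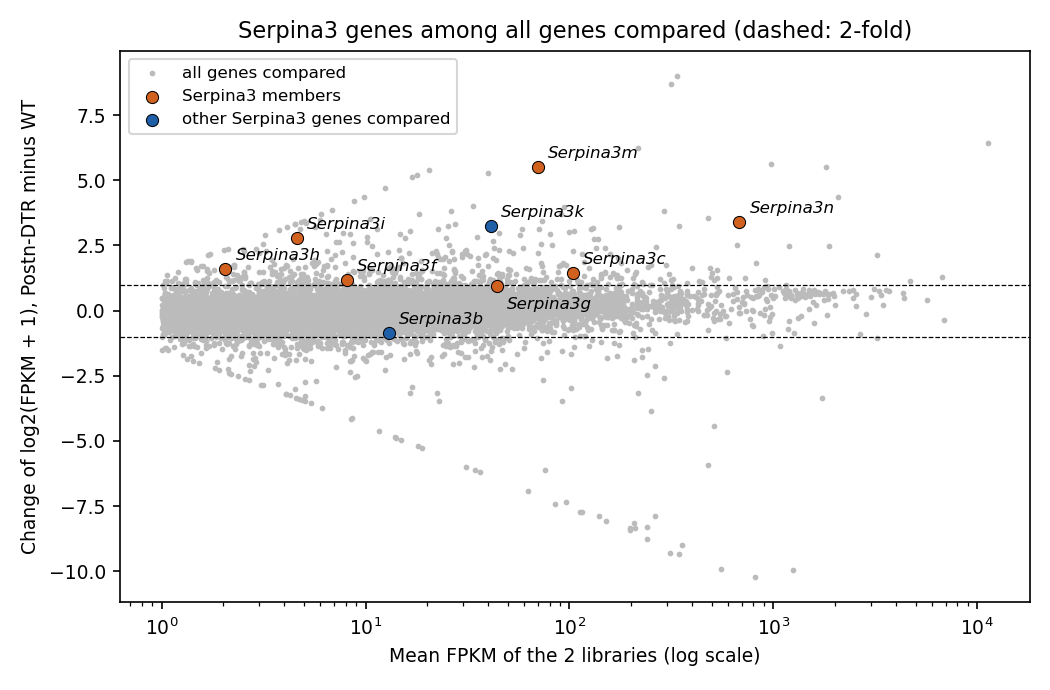
Difference in log2(FPKM + 1) between Postn-DTR and WT, against mean FPKM (log axis) for the 13127 genes compared (grey), with the 7 members in orange and the other Serpina3 genes compared in blue. The 7 members lie above 0, from 0.95 for Serpina3g to 5.52 for Serpina3m, and Serpina3b lies below at -0.85.

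The 4 other Serpina3 genes in the files show that the direction was not common to every copy. Serpina3k, also called contrapsin, lies within the annotated span of Serpina3m. Its FPKM was 6.95 in WT against 75.1 in Postn-DTR, 10.8-fold higher with a change of 3.26. Serpina3b was lower in Postn-DTR, at 17.0 in WT against 8.995 in Postn-DTR, a change of -0.85 with about 738 and 404 estimated fragments. Serpina3j was at 0.716 and 0.208 and Serpina3a at 0.0775 and 0.0414, both under the expression minimum. Serpina3a rests on about 2.73 and 1.51 estimated fragments, under a floor of 3, and no fold is given for it. In WT Serpina3b was the fourth most abundant Serpina3 gene, above Serpina3k, and in Postn-DTR Serpina3k was the fourth and Serpina3b the seventh. Over all 11 Serpina3 genes 9 were compared, of which 7 were at least 2-fold higher and 0 at least 2-fold lower.

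Genes beyond the cluster were chosen by position alone. The 5 nearest genes compared on each side had changes from -0.74 to 0.90, with a median of 0.24, and 0 of these 10 genes were at least 2-fold higher or lower on the log2(FPKM + 1) scale. By the ratio of FPKM, which is larger for scarce genes, Clmn was 2.26-fold higher and Gsc 2.86-fold lower, and the other 8 were within 2-fold. Those before the cluster began 669044 bases away, with Ifi27l2a. The nearest after it, at 56880 bases, was Gsc, at 1.59 in WT against 0.555 in Postn-DTR. The Serpina1 genes, which lie before the cluster and encode forms of alpha-1-antitrypsin, were scarce. Serpina1b, the most abundant of them in WT, was at 1.40 in WT against 0.0678 in Postn-DTR, and Serpina1a was at 0.535 and 0.0273. Of 18 other clade A serpins listed in the files 6 were at 0 in both libraries and 3 were compared. Besides Serpina3k and Serpina3b these were Agt, which encodes angiotensinogen, the non-inhibitory precursor of angiotensin, at 50.2 in WT against 187 in Postn-DTR.

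Promoters were compared for the 5 members that matched the RefSeq promoter table, on GRCm38.p6. Serpina3h and Serpina3m had no entry. The 250 bases before the start site are printed for 2 pairs. Serpina3c and Serpina3n are shown because their windows were 92.7% identical over 247 aligned bases although the folds of the genes were 2.78 and 10.8. Serpina3g and Serpina3i are shown because both hold a match to the STAT and to the NF-kappaB motif. Capitals mark matches, on either strand, to the STAT motif TTCNNNGAA, the C/EBP motif TTGCNNAA, the NF-kappaB consensus and the glucocorticoid response element consensus, and a window without capitals holds none of them.

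Serpina3c, chr12:104153873-104154122, minus strand: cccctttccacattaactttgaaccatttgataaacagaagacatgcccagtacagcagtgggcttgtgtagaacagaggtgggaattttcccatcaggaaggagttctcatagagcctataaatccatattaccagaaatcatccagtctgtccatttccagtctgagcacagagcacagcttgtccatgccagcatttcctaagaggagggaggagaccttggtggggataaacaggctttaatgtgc
Serpina3n, chr12:104406458-104406707, plus strand: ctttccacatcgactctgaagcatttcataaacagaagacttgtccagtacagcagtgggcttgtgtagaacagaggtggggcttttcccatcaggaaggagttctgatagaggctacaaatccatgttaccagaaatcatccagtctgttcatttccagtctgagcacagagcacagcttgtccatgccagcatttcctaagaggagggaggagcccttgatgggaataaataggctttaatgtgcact
Serpina3g, chr12:104235897-104236146, plus strand: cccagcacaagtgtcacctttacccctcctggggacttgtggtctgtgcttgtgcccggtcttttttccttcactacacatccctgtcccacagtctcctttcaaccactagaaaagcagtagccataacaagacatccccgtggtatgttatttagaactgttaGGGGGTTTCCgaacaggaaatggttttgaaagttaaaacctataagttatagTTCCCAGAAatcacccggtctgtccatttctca
Serpina3i, chr12:104262872-104263121, plus strand: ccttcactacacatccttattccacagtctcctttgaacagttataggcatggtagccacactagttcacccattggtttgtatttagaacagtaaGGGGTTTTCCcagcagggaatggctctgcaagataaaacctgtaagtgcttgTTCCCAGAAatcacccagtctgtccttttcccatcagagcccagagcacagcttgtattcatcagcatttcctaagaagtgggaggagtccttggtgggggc

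The STAT motif was found in 3 of the 5 members, Serpina3f, Serpina3g and Serpina3i, and in 7.02% of the 32851 promoter windows of the table. The windows of these 3 members resemble each other. The first window of Serpina3f was 82.9% identical to that of Serpina3g and 80.8% to that of Serpina3i. Serpina3g and Serpina3i were 77.9% identical. Matches in such related windows are not independent, so no excess over the share of all windows is read from these counts. In Serpina3g the match spans -33 to -25 from the start site and in Serpina3i -102 to -94. Its narrower form TTCCNGGAA, which is contained in the first, was in 0 of the 5 members and in 0.913% of all windows. The NF-kappaB consensus was found in 2 members, the related Serpina3g and Serpina3i, and in 3.90% of all windows. The C/EBP motif TTGCNNAA was found in Serpina3f alone among the members and in 9.56% of all windows, and its looser form TTNCNNAA in 5 of 5 members and in 36.8%. The glucocorticoid response element was in 0 members and in 0.167% of windows. These letters describe the windows and are not binding sites. The members whose windows hold the STAT motif, Serpina3f, Serpina3g and Serpina3i, had folds of 2.56, 1.96 and 21.4, and those without it, Serpina3c and Serpina3n, had folds of 2.78 and 10.8.

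The genes with the most similar pair of values were found by the distance of log2(FPKM + 1) over the 2 libraries, for the 4 members with an average FPKM of 10 or more. For Serpina3m the nearest was Spp1, which encodes osteopontin, at 1.02 and 78.3, followed by F10, the coagulation factor X gene, at 3.08 and 64.5. For Serpina3n the nearest were Hspb1, at 197 and 1127, Marco, a macrophage scavenger receptor gene, at 75.1 and 882, and Lrg1, at 193 and 608. The nearest to Serpina3c were Ly6c2, Osr1 and Wfdc21, and the nearest to Serpina3g were Rilpl2, Nrbp2 and Tmem37. F10 lay at a distance of 1.17 from Serpina3m, whereas the second nearest gene lay at 0.80 from Serpina3n, 0.22 from Serpina3c and 0.069 from Serpina3g. With 1 library per genotype this likeness rests on 2 values per gene.

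Transcription of human SERPINA3 and of several mouse copies is known to respond to IL-6 family cytokines through STAT3, to IL-1, to glucocorticoids and, for Serpina3f and Serpina3g, to interferon-gamma. Of 26 genes listed for the IL-6 family, IL-1 and STAT3, 23 were compared. At least 2-fold higher were 9 and at least 2-fold lower 0, with a median change of 0.72. Over all genes compared these shares were 3.88% and 3.12%, which also bear on each list below. Socs3, a target and feedback inhibitor of STAT3, was at 17.8 in WT against 143 in Postn-DTR, Cebpb at 39.0 and 110, and Stat3 itself at 66.5 and 110. The receptor subunit gene Il6st was at 73.8 and 96.1 and the kinase gene Jak1 at 57.3 and 51.4. Whether signalling through STAT3 differed was not tested.

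Of 15 glucocorticoid response genes 15 were compared. At least 2-fold higher were 12, against 3.88% of all genes compared, and 0 were at least 2-fold lower, with a median change of 1.51. This list, like the others, was chosen with earlier results of these data known. Whether the response to glucocorticoids differed was not tested. Fkbp5 was at 43.8 in WT against 148 in Postn-DTR, Tsc22d3 at 90.8 and 241, and Dusp1 at 42.2 and 228. The 3 genes within 2-fold were Angptl4 (132 and 164), Zbtb16 (21.6 and 29.3) and the receptor gene Nr3c1 (22.0 and 14.1). Zbtb16 and Nr3c1 are named for their values. Of 22 interferon-gamma response genes 21 were compared, with 0 at least 2-fold higher, 1 at least 2-fold lower (Cxcl9) and a median change of -0.24. Irf1 was at 63.5 and 55.4, Gbp2 at 68.7 and 74.1 and Psmb8 at 138 and 120. The acute-phase list had 16 of 22 genes compared, with 9 at least 2-fold higher and 1 lower (Orm1), and a median change of 1.65. It includes Lcn2, at 37.7 and 1908, and Hp, which encodes haptoglobin, at 1205 and 5256. The complement gene C3, also on the list, was within 2-fold, at 2404 and 2693. In Postn-DTR the FPKM of Serpina3n was thus of the same order as that of Lcn2 and below those of Hp and C3. Some genes of this list that are not named here had larger changes than Lcn2.

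**Figure D4:**
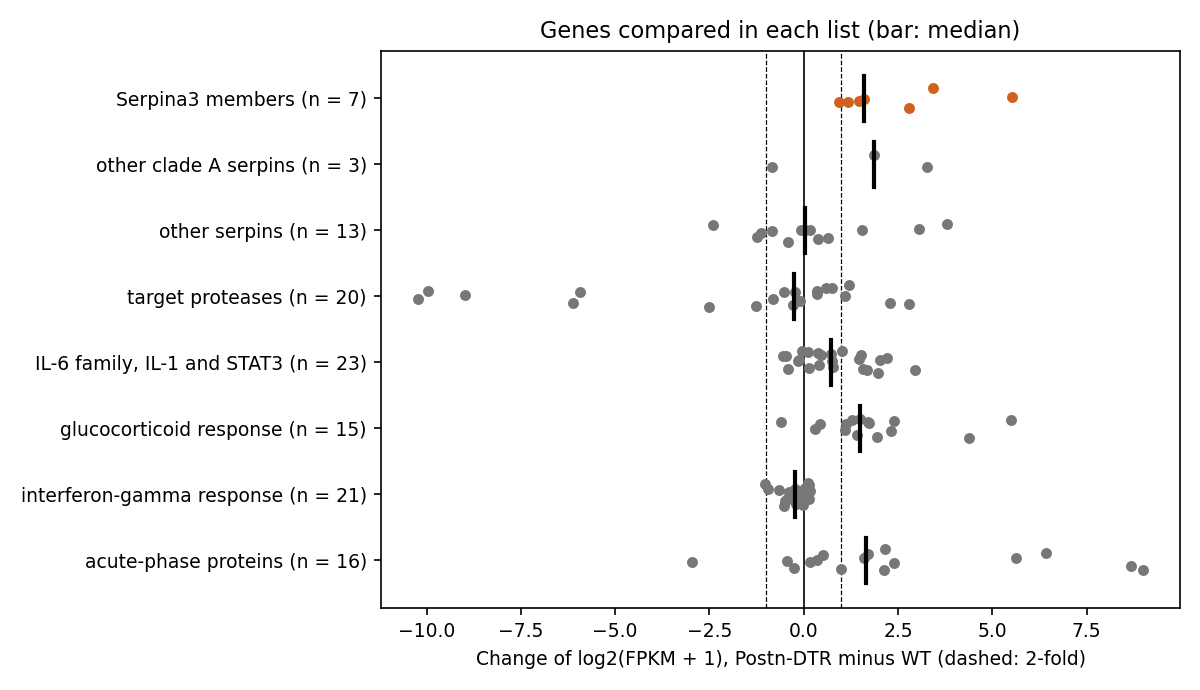
Difference in log2(FPKM + 1) between Postn-DTR and WT for each gene compared in 8 lists, with black bars for the medians and the members in orange. The median is 1.60 for the members, 1.65 for acute-phase proteins, 1.51 for glucocorticoid response, 0.72 for the IL-6 family list and -0.24 for interferon-gamma response.

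A list of serine and cysteine proteases was taken as possible targets, with the metalloprotease gene Mmp9 added, which serpins do not trap and which was within 2-fold. Of 25 genes 20 were compared, 4 were at least 2-fold higher and 7 lower. Of the 7 lower genes 6 are on a list of pancreatic acinar genes written after the data were seen, such as Ctrb1 (2490 in WT against 1.51 in Postn-DTR) and Cela2a (1628 and 0.351), and among the 14 others 4 were higher (Ctsl, Ctss, Cma1 and Prtn3) and 1 lower (Elane). The cysteine cathepsin genes were abundant in both libraries. Ctsl was at 285 and 611, Ctss at 313 and 716 and Ctsb at 406 and 684. Named for their values, as Cxcl9, Orm1, Prtn3 and Elane were, Cma1, the mast cell chymase gene, was at 16.5 and 84.8, and Ctsg, the cathepsin G gene, at 1.66 and 0.519. Klk1, a tissue kallikrein gene named for the same reason, was at 151 and 1.17, and it is 1 of the 6 on the acinar list.

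Serpina3 genes are used by hepatocytes and by several cell types of fat and immune tissue, and in whole tissue more cells of a type and more RNA per cell cannot be told apart. Hepatocyte markers were low. Their 10 genes summed to 5.02 FPKM in WT against 10.6 in Postn-DTR, and 2 of the 10 were compared, of which 1, Tat, was at least 2-fold higher. Tat was at 0.454 and 6.03, Alb at 2.17 and 1.22 and Apoa1 at 0.0546 and 0.422. Fga was listed at 0 in WT and was at 1.61 in Postn-DTR, and Fgb, Apob and Cyp3a11 were listed at 0 in both libraries. Macrophage markers summed to 2894 and 5424 FPKM, with 4 of 6 genes at least 2-fold higher and 2 within 2-fold. Mast cell markers summed to 48.2 and 194.9, with 3 of 5 genes at least 2-fold higher. Fibroblast markers summed to 1089 and 558, with 2 of 6 genes at least 2-fold lower, and adipocyte markers to 2811 and 2105, with 1 of 6 lower. T cell markers summed to 60.5 and 24.5, with 4 of 5 genes lower, and B cell markers to 436 and 320, with 1 of 4 lower. Mesothelial markers summed to 468 and 474, with 1 of 5 genes lower, and endothelial markers to 187 and 173, with 0 of 4 past 2-fold. Neutrophil markers summed to 343 and 661, with 1 of 4 genes higher and 1 lower. Pancreatic acinar markers summed to 4770 and 16.4, with 5 of the 5 genes compared lower. The part of these differences in the Serpina3 values was not tested.

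Facts of the libraries that touch all values were as follows. The estimated depths were similar, with a Postn-DTR to WT ratio of 1.03, whereas the FPKM summed to 542190 and 671882. Pancreatic acinar genes held 2.43% of the sum in WT and 0.00325% in Postn-DTR. Scaling both libraries to the same total shifted the median of all genes by -0.27, and by -0.30 with the acinar genes left out. With this scaling the members were still higher. Under the latter scaling the changes were 0.61 for Serpina3g, 0.87 for Serpina3f, 1.12 for Serpina3c, 1.34 for Serpina3h, 2.49 for Serpina3i, 3.07 for Serpina3n and 5.18 for Serpina3m. The difference was above 0 for each member under the 6 alternatives, but these settings could not have reversed it. A pseudocount cannot change the sign of a difference. The largest shift from scaling, -0.30 in the median, was smaller in size than the smallest change, 0.95. Serpina3f joined Serpina3g under 2-fold when totals were made equal. With a pseudocount of 5, Serpina3f and Serpina3h were under 2-fold as well.

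**Figure D5:**
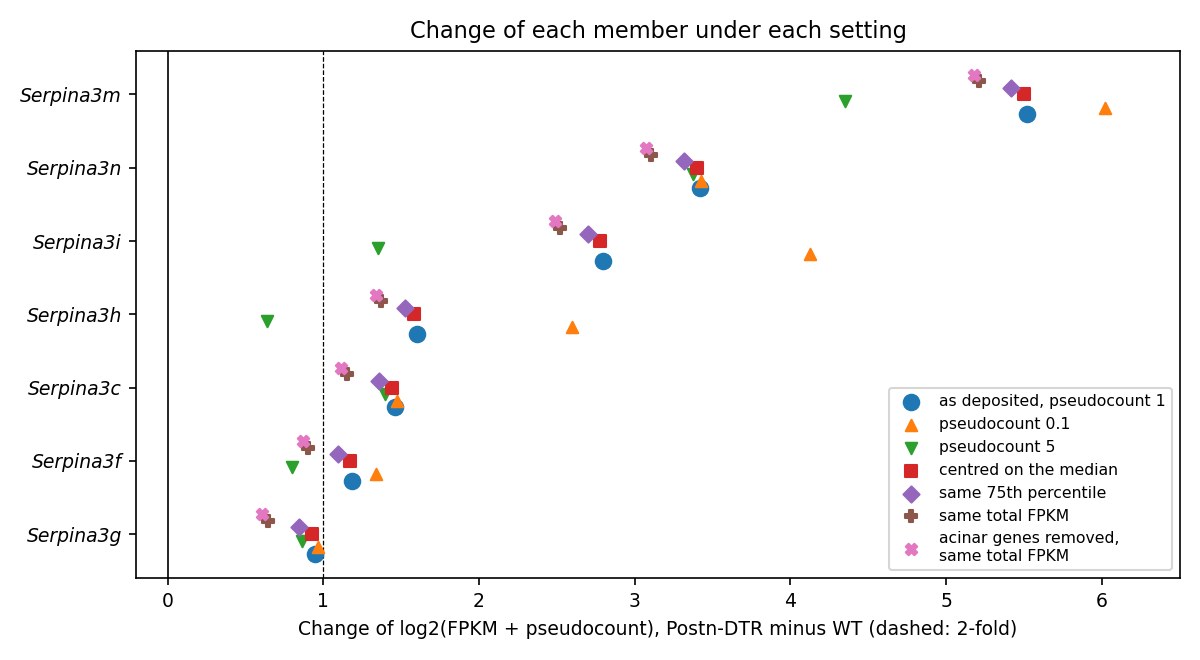
Difference between Postn-DTR and WT of each member, on the log2 scale with the deposited FPKM and under 6 alternatives of pseudocount and scaling. Every change lies above 0, a sign that these settings could not reverse. Serpina3g stays under 2-fold throughout, and the pseudocount moves the low genes Serpina3h and Serpina3i most.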

How the data were processed

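RNA-seq was performed on whole omenta, 1 library per genotype. Per the labels, miRNeasy was used for total RNA and TruSeq stranded mRNA chemistry for the libraries. The authors deposited FPKM, 1 value per gene symbol. The submitters' processing notes name TopHat2 2.1.1, Bowtie2 2.2.8, SAMtools 0.1.18, Cuffdiff 2.2.1 and the build mm10, whereas the annotation, the read length of these libraries and treatment of reads that fit several genes are not given in the sources used here. FPKM divides by transcript length, so another annotation would rescale a gene.

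Groups came from the genotype labels. Changes were computed on log2(FPKM + 1) for genes averaging an FPKM of 1 or more, and with 1 library per group no test was made. Depth was estimated, at about 23 M and 24 M fragments (M, 10 to the power 6), from low FPKM of 4107 genes with 1 transcript: 75.5% of 641 low values in WT and 76.2% of 593 in Postn-DTR came out within 0.1 of a whole fragment, where 20% would if spread evenly. Depth here is the library size that the FPKM imply, and any scaling between libraries would be part of it. Estimated fragments use the length of 1 transcript per gene and are approximate. Intervals are 95% exact Poisson intervals for levels and exact Clopper-Pearson intervals for ratios, and cover counting error only. The depth estimate was tested on simulated data. Positions and transcripts are from GENCODE M21 and promoter windows from RefSeq (GRCm38.p6). Python 3.11.15, pandas 2.3.3, scipy 1.17.1 and Biopython 1.88 were used.

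The members and lists were chosen with earlier results of these data known. Named were the members, the other clade A serpins, up to 6 genes per list with the highest mean FPKM, and the 3 genes nearest in value to a member. Genes outside this rule are identified, and 1 gene within it is not reported here. Alternatives varied the pseudocount, scaling, expression minimum and threshold.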

Additional observations from a re-analysis of the deposited data

How the results depend on the processing

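The number of members at least 2-fold higher, 6 of 7, became 3 of the 4 members left when the minimum average FPKM was raised to 10, where 4.2% of all genes compared were past the threshold. It was 4 with a pseudocount of 5 (2.19% of all genes), 5 at equal totals with or without the acinar genes (2.35% and 2.26%), 4 at a 3-fold threshold (1.52%) and 7 at a 1.5-fold threshold (9.86%). A stricter minimum or threshold lowers such a count by construction. The ratio of the summed FPKM, 7.78, was 7.25 with libraries scaled to the same 75th percentile, 6.28 at the same total, 6.13 with the acinar genes also removed, 4.05 without Serpina3n and 7.32 over all 11 Serpina3 genes. Across the 6 alternatives tried for each member, changes ran from 4.35 to 6.02 for Serpina3m, 3.07 to 3.43 for Serpina3n, 1.35 to 4.12 for Serpina3i, 0.64 to 2.60 for Serpina3h, 1.12 to 1.47 for Serpina3c, 0.80 to 1.34 for Serpina3f and 0.61 to 0.97 for Serpina3g. No paired analysis was possible because each genotype has 1 library. Depth limits the WT values of Serpina3h, Serpina3i and Serpina3m, which rest on few fragments.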

Other observations

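Serpins of other clades had no common direction. Of 26 genes listed 13 were compared, with 3 at least 2-fold higher, 3 at least 2-fold lower and a median change of 0.04. Serping1, which encodes the complement C1 inhibitor and was the most abundant, was at 776 FPKM in WT and 795 in Postn-DTR. Serpinh1, which encodes a chaperone of collagen in the endoplasmic reticulum, was at 436 and 186. Serpinb6a, an intracellular inhibitor gene, was at 129 and 202, and Serpinf1, which encodes pigment epithelium-derived factor, was at 151 and 112. Serpinb2, chosen after its values were seen, was at 2.72 and 30.2. Serpini2, known from the exocrine pancreas, was at 4.28 in WT and listed at 0 in Postn-DTR, a library in which acinar genes held 0.00325% of the FPKM against 2.43% in WT.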
